A study of Mus musculus with 6 samples.

Results

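The 41 genes described here encode the enzymes and transporters that make, recycle and take up nucleotides and that run the folate-dependent one-carbon cycle. They were chosen by name, as known members of these pathways and with earlier results of these data known, and Ensembl gene IDs were matched to GENCODE symbols. All 41 were found among the 24190 genes of the count table, and all 41 passed the expression filter that left 14692 genes for testing. MTO54 is a mouse tumor organoid (MTO) line of AKP genotype, a triple mutant model of colorectal cancer, and its parental form was used. RNA sequencing covered 3 control samples, kept in complete stem cell medium, and 3 samples given Folfiri, the combination of 5FU at 50 μg/μl (unit as the labels write it) and SN38 at 100 nM. Both groups were seeded as dissociated cells in BME, a basement membrane matrix, and the treatment began 2 days after seeding and lasted 2 days according to the labels. The study's own descriptions of the length of treatment differ from each other, and the value of the labels is used here. All samples came from this single line and the labels do not say whether they were separate cultures. The study calls them biological replicates. P-values here measure the spread between these samples, which may be technical.

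Purine nucleotides are built on a ribose phosphate donor, PRPP, in a chain of steps that ends in inosine monophosphate (IMP), from which AMP and GMP are made. Pyrimidine nucleotides are built as a ring that is then joined to PRPP, and ribonucleotide reductase converts ribonucleotides to the deoxyribonucleotides used for DNA. Folate carries one-carbon units between serine, glycine and formate in a cytosolic and a mitochondrial branch, and these units are used in purine synthesis, in thymidylate synthesis and in remaking methionine. 5FU is a pyrimidine analog whose active metabolites inhibit thymidylate synthase and enter RNA and DNA, and SN38, the active form of irinotecan, inhibits topoisomerase I.

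Short stretches around annotated starts of the members are shown first, to give the letters behind a motif search in these genes. RefSeq promoter windows, from 250 bases before to 50 bases after each annotated start (build GRCm38.p6), were matched for 37 of the 41 members. Aldh1l2, Ggh, Pfas and Dhodh had no match. Motifs of 3 kinds were searched on both strands. A gene with several annotated starts counted if any of its windows matched, and Slc29a1, for example, had 8 windows. The genes set beside the members were not limited to those tested, and the number of windows was not matched. The E-box CACGTG, which reads the same on both strands, was present in 6 of 37 members (16.2%) and in 8.09% of the 27025 genes with a window. E2F-like letters (TTTCCCGC, TTTGGCGC or TTTCGCGC) were present in 2 of 37 members (5.41%) and in 2.12% of genes. The C/EBP-ATF forms TGATGCAA and TGATGAAA were in 0 of 37 members and in 2.16% of genes. No motif overlapped another kind in the stretches shown. The matches were spread over several arms, and no arm had them in all of its members. Each stretch is 30 bases long and is written 5′ to 3′ on the strand of the gene, with the motif in capitals, and none of these matches is known from these data to be a bound site.
Atic, chr1:71557137-71557166, plus strand: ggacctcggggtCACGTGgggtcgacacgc
Paics, chr5:76951087-76951116, plus strand: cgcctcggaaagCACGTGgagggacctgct
Impdh2, chr9:108560314-108560343, plus strand: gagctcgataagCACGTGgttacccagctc
Dtymk, chr1:93802065-93802094, minus strand: gtctcgaacttcCACGTGaccagagcctgc
Nme1, chr11:93968273-93968302, minus strand: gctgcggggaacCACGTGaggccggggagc
Slc29a1, chr17:45595304-45595333, minus strand: gagcagcgccagCACGTGgcgcgcatgggc
Ppat, chr5:76951771-76951800, minus strand: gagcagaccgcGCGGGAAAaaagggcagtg
Ppat, chr5:76951718-76951747, minus strand: aggatcagaggGCGGGAAAgggaggtgcaa
Prps2, chrX:167382700-167382729, minus strand: cctgctgctgcgtTTTCCCGCttcaccagc

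The E-box of Atic lay 7 bases before the start and that of Paics 203 bases before it. The match in Prps2 lay 33 bases after the start, and the stretches of Impdh2, Slc29a1 and Nme1 lie within the annotated gene, beside a start other than its outermost. Nme1 had a second E-box in the window of another of its annotated starts. All 6 members with an E-box were higher after Folfiri, as the values below show, and so were both members with E2F-like letters, beside 24 of 41 members in all and 40.3% of all genes tested. Dtymk, with an E-box, did not keep its call with an offset for genomic span, and the share of all genes with these motifs that were higher was not computed. Ppat and Paics are neighbours on opposite strands of chromosome 5 and share 272 exonic bases, so their windows lie close to each other.

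Total counts per sample ranged from 22103591 to 30098210, and levels are given as CPM, counts scaled to a common library size, after TMM normalization. TMM factors were 0.880 to 0.966 in controls and 1.10 to 1.11 after Folfiri. Control replicate 1 stood apart from the other 2 controls. The chi-square per degree of freedom over genes was 25.33 against replicate 2 and 23.89 against replicate 3, while replicates 2 and 3 gave 4.031. Folfiri replicate 3 gave 12.81 and 13.3 against the others, which gave 3.759 with each other. Among the 41 members, control replicate 1 lay above both other controls in 27, below both in 10 and between them in 4, so results are also given without it where it mattered. Epithelial markers summed to 4188.8 to 4883.1 CPM in controls and 3633.8 to 3719.1 CPM after Folfiri, with Epcam, Krt8 and Cdh1 high and Krt20 and Cdx1 near 0. Of 7 epithelial markers tested, 1 rose and 3 fell, beside 40.3% higher and 38.8% lower over all genes tested. Epcam and Cdx2 were among those that fell, with log2 fold changes of -0.94 and -1.53. Immune and fibroblast markers summed to at most 26.3 and 2.45 CPM, with Cd68 providing nearly all of the first sum. Endothelial markers summed to 72.2 to 124.5 CPM in controls and 65.5 to 76.2 CPM after Folfiri, nearly all of it Cdh5, with Pecam1 and Kdr near 0. In bulk samples like these, fewer cells of a type and less RNA per cell cannot be told apart.

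Most of these genes differed between Folfiri and control, and 6 of the 10 arms held both higher and lower calls. At an adjusted p under 0.05 in edgeR's quasi-likelihood test, 24 of 41 members rose, 10 fell and 7 did not pass. Over all genes tested, 79.1% were called, 40.3% higher and 38.8% lower, so the 34 members called (82.9%) were close to the background, with 58.5% higher and 24.4% lower. The 3 control and the 3 Folfiri values did not overlap in 36 members (87.8%), against 81.4% of all genes. A change of 1 or more on the log2 scale was seen in 15 members (36.6%), against 36.4% of all genes. The median log2 fold change of the members was 0.36, against 0.02 over all genes, and the median absolute log2 fold change was 0.72 against 0.73. DESeq2 and the fit with no expression filter covered all 24190 genes, with medians of 0.30 and 0.27, and over the 14692 genes of the main test the medians of these fits were 0.01 and -0.01. Without control replicate 1, 36 members were called, 25 higher and 11 lower. When libraries were scaled by their totals alone, the median over all genes moved up by 0.28, to 0.30, and that of the members to 0.63, and the share of calls that were higher went from 51.0% to 63.3% over all genes and from 70.6% to 75.0% among members.

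**Figure D1:**
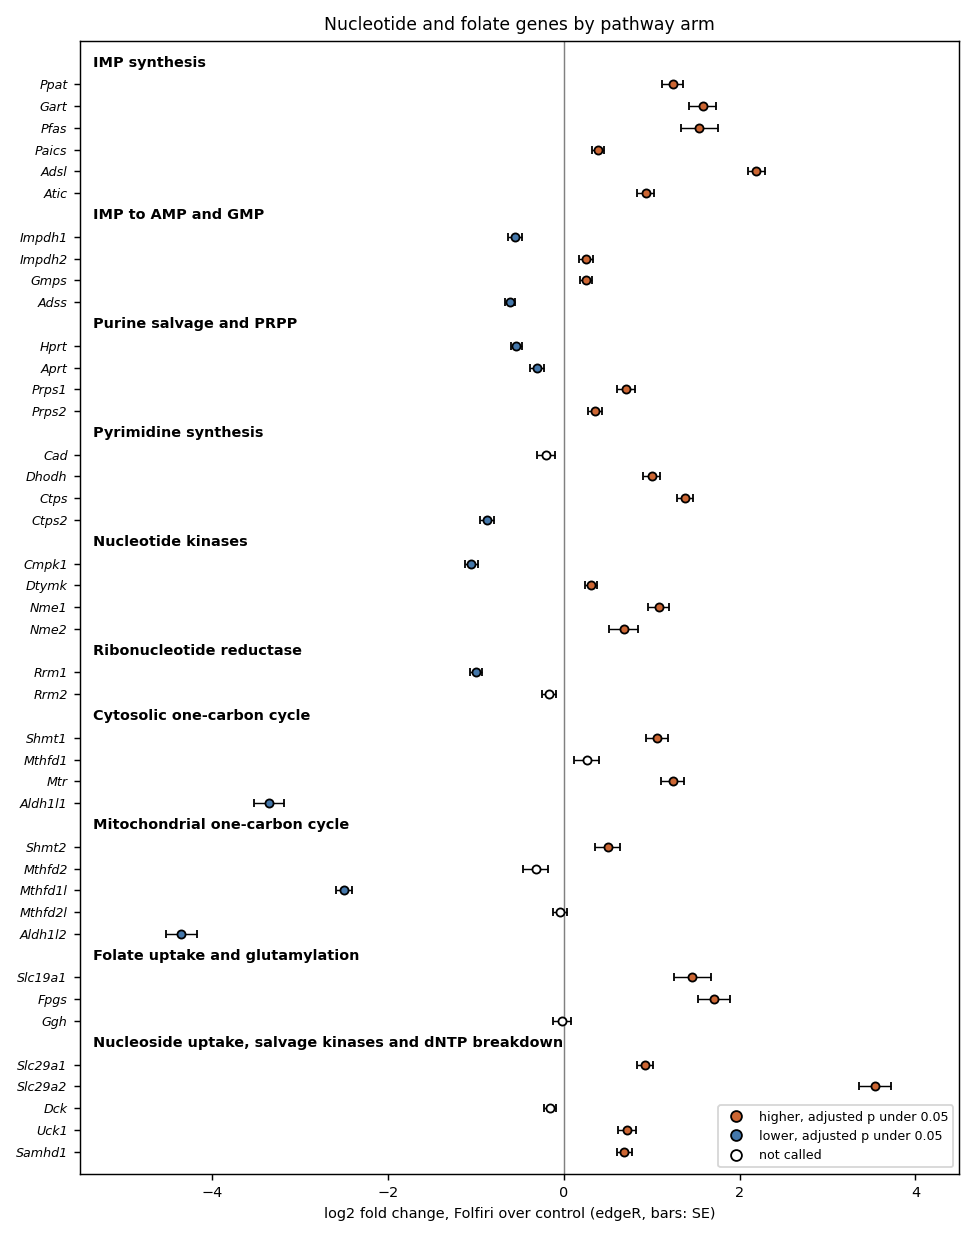
Log2 fold change of each of the 41 members after Folfiri over control (x axis, points with SE bars, edgeR), grouped by pathway arm; filled points passed an adjusted p of 0.05 and open points did not. All 6 IMP synthesis genes lie to the right of 0, between 0.39 and 2.19, while Aldh1l2, Aldh1l1 and Mthfd1l lie farthest to the left, at -4.35, -3.35 and -2.50.

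The 6 genes of IMP synthesis all rose, with a median log2 fold change of 1.39, and 4 of them rose by more than 1 on the log2 scale. All 6 were also called higher under each of the 14 alternative fits. Adsl (ENSMUSG00000022407, chr15:80948490-80970946), which encodes adenylosuccinate lyase, the enzyme of a late step to IMP and of the last step to AMP, was at 48.9, 42.0 and 36.9 CPM in control replicates 1 to 3 and at 183.8, 195.4 and 205.6 CPM in Folfiri replicates 1 to 3. Every Folfiri sample lay far above every control, and the log2 fold change was 2.19 ± 0.10 (SE; edgeR adjusted p = 2.65e-08). Gart (ENSMUSG00000022962, chr16:91621186-91646952), a trifunctional enzyme that includes a folate-dependent formyl transfer, was at 60.5, 39.1 and 39.5 CPM in controls and 130.2, 143.5 and 143.1 CPM after Folfiri. Its groups did not overlap although control replicate 1 was the highest control, and the log2 fold change was 1.58 ± 0.15 (edgeR adjusted p = 3.04e-06), or 1.82 without that replicate. The exons of Gart share 1014 bases with Gm15964 on the opposite strand, and reads of such partners cannot be told apart without strand.

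Pfas, which encodes the synthase of the step between the Gart reactions, was at 32.2, 17.5 and 16.1 CPM in controls and at 65.7, 68.5 and 58.8 CPM after Folfiri. Control replicate 1 was 1.91 times the mean of the other controls and still lay below all Folfiri samples. The log2 fold change of Pfas was 1.54 ± 0.21 (edgeR adjusted p = 5.54e-05), or 1.93 without control replicate 1. Ppat, the amidotransferase of the first committed step, was at 80.1, 59.7 and 58.3 CPM in controls and at 151.9, 165.4 and 150.5 CPM after Folfiri. All Folfiri samples were well above all controls (log2 fold change 1.24 ± 0.12, edgeR adjusted p = 2.82e-06). Atic, which encodes the bifunctional enzyme of the last steps, with a folate-dependent formyl transfer, rose from 63.1 ± 8.79 to 120.4 ± 4.58 CPM (SD, n = 3 each; log2 fold change 0.93 ± 0.10). Paics, a bifunctional enzyme of the middle steps, rose least, from 339.9 ± 8.80 to 446.5 ± 15.4 CPM (log2 fold change 0.39 ± 0.07). With an offset for genomic span Paics was at 0.21 and still passed (adjusted p = 0.0175). Per kb of exon, Paics was by far the highest of the 6 in both groups, at 108.3 CPM per kb in controls and 142.2 after Folfiri, where the other 5 were at 2.77 to 14.9 and at 8.11 to 35.3.

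**Figure D2:**
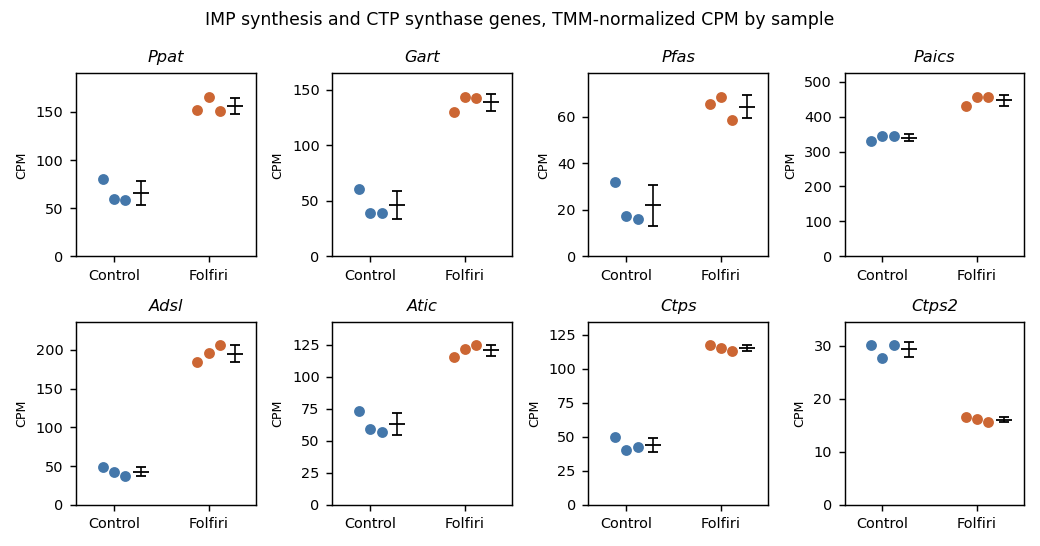
TMM-normalized CPM (y axis) in each of the 3 control and 3 Folfiri samples for the IMP synthesis genes and for Ctps and Ctps2, with bars for the mean ± SD. The groups are separate in all 8 panels, with Folfiri above control in 7 and below it for Ctps2.

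Downstream of IMP the genes divided. Impdh1 and Adss fell while Impdh2 and Gmps rose, each by less than 1 on the log2 scale. Adss, whose product commits IMP to AMP, was at 144.3, 144.7 and 144.9 CPM in controls and 95.7, 92.7 and 96.4 CPM after Folfiri. Its replicates were close together and its groups far apart (log2 fold change -0.61 ± 0.06, edgeR adjusted p = 6.11e-06). The dehydrogenases that commit IMP to GMP moved in opposite directions. Impdh1 was at 71.2, 78.8 and 73.1 CPM in controls and 48.7, 49.0 and 54.3 CPM after Folfiri (log2 fold change -0.55 ± 0.08, edgeR adjusted p = 6.82e-05). Impdh2 was at 270.5, 297.1 and 286.7 CPM in controls and 321.0, 338.3 and 359.1 CPM after Folfiri (log2 fold change 0.25 ± 0.08, edgeR adjusted p = 0.00987). Neither gene had overlapping groups. A copy with 99.7% identity over 1545 bases, Impdh2-ps, was listed at 119.1 ± 7.74 CPM in controls and 138.0 ± 7.45 CPM after Folfiri, so the value of Impdh2 is uncertain. Gmps, which makes GMP from xanthosine monophosphate, was at 88.0, 86.7 and 84.5 CPM in controls and 103.5, 106.3 and 99.5 CPM after Folfiri, without overlap (log2 fold change 0.25 ± 0.07, edgeR adjusted p = 0.00428). Gmps has copies in Gm20656 and Gm20657, of 98.9% and 99.3% identity over 276 bases.

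In purine salvage the enzymes that return free bases to nucleotides fell, and the synthetases that supply PRPP rose. Hprt, which salvages hypoxanthine and guanine, was at 155.9, 147.3 and 153.0 CPM in controls and 103.9, 103.8 and 106.7 CPM after Folfiri. All Folfiri samples lay well below all controls (log2 fold change -0.54 ± 0.06, edgeR adjusted p = 1.87e-05). Aprt, which salvages adenine, was at 240.9, 272.6 and 253.9 CPM in controls and 201.3, 197.1 and 224.7 CPM after Folfiri, a smaller gap (log2 fold change -0.30 ± 0.08, edgeR adjusted p = 0.00519). With an offset for genomic span the value for Aprt was -0.07 (adjusted p = 0.469), and with total counts only it was -0.02 (adjusted p = 0.770), so its call did not hold under either. Prps1 was at 49.6, 45.1 and 39.8 CPM in controls and 67.0, 76.1 and 77.2 CPM after Folfiri, without overlap (log2 fold change 0.71 ± 0.10, edgeR adjusted p = 4.95e-05). Prps2 was at 80.2, 74.6 and 76.3 CPM in controls and 101.0, 104.5 and 90.9 CPM after Folfiri (log2 fold change 0.36 ± 0.08, edgeR adjusted p = 0.00121). Its groups were separate too, by a smaller margin. Aprt and Hprt were the 2 highest members per kb of exon in controls, at 158.4 and 118.0 CPM per kb, and were at 128.6 and 81.3 after Folfiri.

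In pyrimidine synthesis, Dhodh and Ctps rose, Ctps2 fell and Cad did not pass. Cad, which encodes the trifunctional enzyme of the opening steps, was at 128.3 ± 21.1 CPM in controls and 111.5 ± 1.70 CPM after Folfiri (log2 fold change -0.20 ± 0.10, edgeR adjusted p = 0.0925). Its lowest control and highest Folfiri values were separated, but control replicate 1 was 1.32 times the mean of the other controls. Cad passed in 4 of the 14 alternative fits, at -0.32 with an offset for genomic span (adjusted p = 0.0142), at -0.23 with no expression filter (adjusted p = 0.0354) and without control replicate 2 or 3. Its value was -0.06 without control replicate 1 (adjusted p = 0.361) and 0.06 with total counts only (adjusted p = 0.665). Dhodh, the mitochondrial dehydrogenase that follows, was at 14, 11.3 and 12.2 CPM in controls and 24.8, 23.9 and 26.2 CPM after Folfiri. No values overlapped, and the log2 fold change was 1.0 ± 0.10 (edgeR adjusted p = 5.83e-06). The CTP synthases, which make CTP from UTP, moved apart. Ctps (ENSMUSG00000028633, chr4:120539868-120570276) was at 50.1, 40.2 and 42.7 CPM in controls and 117.3, 115.5 and 112.9 CPM after Folfiri (log2 fold change 1.38 ± 0.09, edgeR adjusted p = 1.98e-07). Ctps2 (ENSMUSG00000031360, chrX:162901238-163032508) was at 30.1, 27.8 and 30.1 CPM in controls and 16.5, 16.2 and 15.6 CPM after Folfiri (log2 fold change -0.87 ± 0.08, edgeR adjusted p = 3.44e-06). Both genes had well separated groups, and with the offset for genomic span the value for Ctps2 was -0.51 and still passed. Gm18699 matches 243 bases of Ctps at 96.7% identity. Umps, which encodes the enzyme that joins the ring to PRPP and makes UMP and which is not among the 41 members, rose most of the other nucleotide genes described further on.

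Among the nucleotide kinases, which add phosphates to nucleotides, Cmpk1 fell and Dtymk, Nme1 and Nme2 rose. Cmpk1, which phosphorylates UMP and CMP, was at 129.4, 128.8 and 136.3 CPM in controls and 66.1, 63.1 and 61.3 CPM after Folfiri. The Folfiri mean was 0.483 times the control mean, with close replicates in both groups (log2 fold change -1.05 ± 0.07, edgeR adjusted p = 2.12e-07). A copy of Cmpk1, Gm5867, matches 592 bases at 96.5% identity. Dtymk, which phosphorylates dTMP, was at 42.1, 39.8 and 42.1 CPM in controls and 49.7, 50.1 and 53.5 CPM after Folfiri. Its groups were separate (log2 fold change 0.31 ± 0.07, edgeR adjusted p = 0.00270), and with the span offset it was at 0.17 with an adjusted p of 0.0561. Nme1, a nucleoside diphosphate kinase, was at 27.9, 25.2 and 24.4 CPM in controls and 47.5, 51.3 and 65.5 CPM after Folfiri (log2 fold change 1.08 ± 0.12, edgeR adjusted p = 1.12e-05). Nme2, its paralog, was at 3.13, 3.40 and 3.19 CPM in controls and 4.26, 5.65 and 5.70 CPM after Folfiri (log2 fold change 0.68 ± 0.16, edgeR adjusted p = 0.00217). Both values are uncertain because the read-through gene Gm20390, on the same strand, covers 12.5% of the exonic bases of Nme1 and 48.9% of those of Nme2, and because Nme2 has a copy, Gm5425, of 97.6% identity. Gm5425 was listed above Nme2, at 26.5 ± 0.920 CPM in controls and 30.9 ± 3.79 CPM after Folfiri. Its change was smaller and did not pass (log2 fold change 0.22 ± 0.10, edgeR adjusted p = 0.0584).

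For ribonucleotide reductase, the large subunit gene Rrm1 fell and the small subunit gene Rrm2 did not pass. Rrm1 was at 289.3, 299.5 and 292.6 CPM in controls and 143.2, 149.8 and 148.4 CPM after Folfiri. The tight replicates left a wide gap between the groups (log2 fold change -1.0 ± 0.07, edgeR adjusted p = 2.42e-07). Rrm2 was at 102.9, 92.2 and 85.2 CPM in controls and 79.9, 83.2 and 85.3 CPM after Folfiri, with the highest Folfiri sample just above the lowest control (log2 fold change -0.17 ± 0.08, edgeR adjusted p = 0.0692). The value of Rrm2 was -0.10 without control replicate 1 (adjusted p = 0.168), -0.25 without control replicate 3, where it passed (adjusted p = 0.0267), and 0.10 with total counts only (adjusted p = 0.398). A copy of Rrm2, Gm48455, matches 419 bases at 95.5% identity. Of the 20 genes of a proliferation list, 7 rose (35.0%) and 11 fell (55.0%), against 40.3% and 38.8% of all genes tested. Summed, they were at 4365.2 to 4961.6 CPM in controls and 2932.2 to 3032.2 CPM after Folfiri, and the part of this change in the values of the DNA precursor genes was not tested. Mki67, a marker of cycling cells, fell from 735.2 ± 34.1 to 245.8 ± 29.5 CPM (log2 fold change -1.58 ± 0.10). Top2a, a topoisomerase of dividing cells, fell from 1283.0 ± 187.4 to 408.2 ± 28.1 CPM (log2 fold change -1.65 ± 0.12). Most of the fall in the sum of the list lay in these 2 genes. Mcm2 and Cdc6, which act in licensing replication origins, rose by 1.31 and 1.0.

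In the cytosolic one-carbon cycle, Shmt1 and Mtr rose, Aldh1l1 fell sharply and Mthfd1 did not pass. Aldh1l1 (ENSMUSG00000030088, chr6:90486427-90600203), which oxidises the formyl group of formyl-tetrahydrofolate to CO2, was at 15.1, 14.8 and 15.5 CPM in controls and 1.88, 1.10 and 1.49 CPM after Folfiri. The controls were 10.2 times the Folfiri level on average (log2 fold change -3.35 ± 0.17, edgeR adjusted p = 3.85e-08). Its exons share 499 bases with Gm15756 on the opposite strand. Shmt1, which passes a one-carbon unit from serine to tetrahydrofolate, was at 44.1, 33.5 and 29.1 CPM in controls and 69.9, 72.7 and 79.9 CPM after Folfiri, without overlap (log2 fold change 1.06 ± 0.13, edgeR adjusted p = 2.89e-05). Shmt1 shares 184 exonic bases with Smcr8 on the opposite strand, which rose as well, by 0.92. Mtr, the methionine synthase that uses methyl-tetrahydrofolate, was at 9.79, 7.28 and 7.92 CPM in controls and 21.9, 18.8 and 18.6 CPM after Folfiri. All Folfiri samples were above all controls (log2 fold change 1.24 ± 0.13, edgeR adjusted p = 6.58e-06).

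Mthfd1, the trifunctional enzyme that interconverts formate and the one-carbon forms of folate in the cytosol, was at 70.9, 47.0 and 47.8 CPM in controls and 63.1, 66.1 and 70.2 CPM after Folfiri. Control replicate 1 lay above all Folfiri samples while the other controls lay below them (log2 fold change 0.26 ± 0.14, edgeR adjusted p = 0.107). Without control replicate 1 the value was 0.49 and passed (adjusted p = 2.29e-05). With each sample left out in turn, values of Mthfd1 ranged from 0.15 to 0.49. It passed in 4 of the 14 alternative fits, among them the span offset (0.38, adjusted p = 0.0292) and total counts only (0.53, adjusted p = 0.0194).

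In the mitochondrial one-carbon cycle, Aldh1l2 and Mthfd1l fell steeply, Shmt2 rose, and Mthfd2 and Mthfd2l did not pass. Aldh1l2 (ENSMUSG00000020256, chr10:83487450-83534140), the mitochondrial counterpart of Aldh1l1, was at 18.0, 15.1 and 14 CPM in controls and 0.637, 0.904 and 0.759 CPM after Folfiri. No Folfiri sample reached 1 CPM, and the log2 fold change was -4.35 ± 0.18 (edgeR adjusted p = 1.04e-08). It shares 1056 exonic bases, 14.1% of its own, with D10Wsu102e on the opposite strand, which rose from 58.6 ± 5.99 to 110.1 ± 5.05 CPM. Mthfd1l (ENSMUSG00000040675, chr10:3973118-4167081), which releases formate for export to the cytosol, was at 99.7, 87.7 and 84.2 CPM in controls and 16.8, 15.9 and 15.3 CPM after Folfiri. Controls were 5.65 times the Folfiri level (log2 fold change -2.50 ± 0.09, edgeR adjusted p = 6.21e-09). Per kb of exon it went from 20.4 to 3.61 CPM per kb, from rank 13 to rank 37 among the 41 members.

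Shmt2, the mitochondrial serine hydroxymethyltransferase, was at 81.7, 57.4 and 52.5 CPM in controls and 84.8, 89.7 and 96.8 CPM after Folfiri. Its groups were separate by a narrow margin because control replicate 1 was high (log2 fold change 0.50 ± 0.14, edgeR adjusted p = 0.00754), and without that replicate the value was 0.72. Mthfd2, the dehydrogenase and cyclohydrolase between Shmt2 and Mthfd1l, was at 87.1, 62.0 and 60.01 CPM in controls and 49.6, 56.9 and 61.4 CPM after Folfiri. The groups overlapped (log2 fold change -0.32 ± 0.14, edgeR adjusted p = 0.0542), and it was called lower in 7 of the 14 alternative fits, with values from -0.30 to -0.47. Its value was -0.47 with the span offset (adjusted p = 0.00931), -0.42 without control replicate 3, which passed, and -0.12 without control replicate 1, which did not. Mthfd2l, its paralog, was at 41.4, 44.8 and 44.0 CPM in controls and 39.1, 43.9 and 43.6 CPM after Folfiri, with overlapping groups and a log2 fold change of -0.04 ± 0.08 (edgeR adjusted p = 0.654). With total counts only Mthfd2l turned to 0.24 and passed (adjusted p = 0.0186), and with the span offset it was at 0.19 (adjusted p = 0.0504).

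The folate carrier and the enzyme that retains folate in cells both rose. Fpgs, which adds the glutamate tail that holds folate in the cell, was at 10.8, 6.44 and 6.07 CPM in controls and 26.3, 24.3 and 26.7 CPM after Folfiri. Slc19a1, the reduced folate carrier, was at 12.1, 6.84 and 5.91 CPM in controls and 22.7, 22.7 and 23.6 CPM after Folfiri. Both had separate groups, with control replicate 1 at 1.73 and 1.89 times the mean of the other controls. The log2 fold changes were 1.71 ± 0.18 (edgeR adjusted p = 7.89e-06) for Fpgs and 1.46 ± 0.21 (edgeR adjusted p = 7.08e-05) for Slc19a1, and without control replicate 1 they were 2.04 and 1.84. Ggh, the hydrolase that removes the tail, was at 15.6, 17.4 and 18.9 CPM in controls and 18.1, 15.7 and 17.2 CPM after Folfiri, with overlapping groups and a log2 fold change of -0.02 ± 0.10 (edgeR adjusted p = 0.866). With total counts only Ggh turned to 0.26 and passed (adjusted p = 0.0413).

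**Figure D3:**
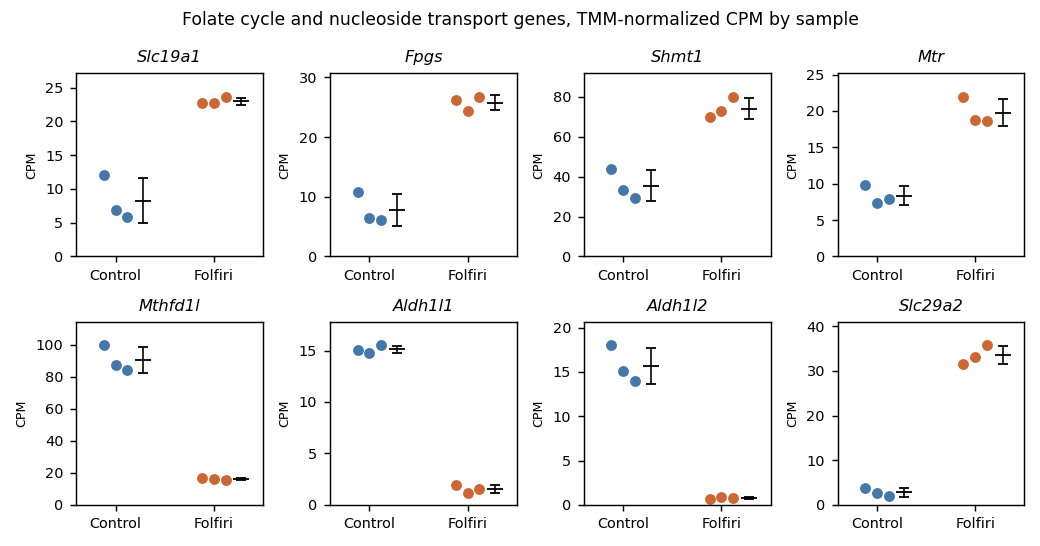
TMM-normalized CPM (y axis) in each of the 3 control and 3 Folfiri samples for 8 folate cycle and nucleoside transport genes, with bars for the mean ± SD. Folfiri samples lie above all controls for Slc19a1, Fpgs, Shmt1, Mtr and Slc29a2 and below all controls for Mthfd1l, Aldh1l1 and Aldh1l2.

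Of the genes for nucleoside uptake, salvage kinases and dNTP breakdown, 4 of 5 rose. Slc29a2 (ENSMUSG00000024891, chr19:5023860-5031972), an equilibrative nucleoside transporter, had the highest fold change of the 41 members. It was at 3.82, 2.72 and 1.90 CPM in controls and 31.6, 33.2 and 35.7 CPM after Folfiri, an 11.9-fold difference of the means (log2 fold change 3.54 ± 0.18, edgeR adjusted p = 3.92e-08). Per kb of exon it was the lowest member in controls, at 0.932 CPM per kb, and rank 28 after Folfiri, at 11.1 CPM per kb. Slc29a1, the related transporter, was at 51.8, 43.7 and 45.6 CPM in controls and 81.1, 87.5 and 98.0 CPM after Folfiri, without overlap (log2 fold change 0.92 ± 0.09, edgeR adjusted p = 6.12e-06).

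Uck1, a uridine and cytidine kinase, was at 46.7, 60.3 and 58.5 CPM in controls and 83.8, 94.2 and 94.3 CPM after Folfiri (log2 fold change 0.72 ± 0.10, edgeR adjusted p = 7.03e-05). Its groups were separate, and here control replicate 1 was the lowest control. A copy of Uck1, Gm4482, matches 742 bases at 99.3% identity. Samhd1, which breaks down dNTPs, was at 28.4, 26.6 and 25.5 CPM in controls and 39.7, 45.3 and 44.8 CPM after Folfiri, without overlap (log2 fold change 0.69 ± 0.09, edgeR adjusted p = 2.64e-05). The exons of Slc29a1 share 275 bases with Gm17080 on the opposite strand, and those of Fpgs share 137 bases with Mir8093 and 61 with Eng. Dck, the deoxycytidine kinase, was at 82.2, 84.9 and 80.5 CPM in controls and 69.9, 77.0 and 75.1 CPM after Folfiri. The groups did not overlap, yet the difference was small and did not pass (log2 fold change -0.16 ± 0.07, edgeR adjusted p = 0.0579). With the span offset Dck was at -0.33 and passed (adjusted p = 0.00137).

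Related members were then set against each other within each sample, since the log2 ratio of a pair does not depend on the scaling of the library and gene length drops out of the difference between groups. Of 13 pairs, 12 had ratios that did not overlap between groups. Single genes did not overlap in 81.4% of all tested, and ratios of other gene pairs were not computed, so nothing particular to these pairs is read from this count. With 3 against 3 samples the two-sided exact permutation test cannot go below 0.1, which those 12 pairs reached (Benjamini-Hochberg adjusted 0.108 over the 13 pairs), so no pair could pass. The widest shift was in Mthfd1 over Mthfd1l, the cytosolic and mitochondrial formate-linked enzymes. This log2 ratio was -0.49, -0.90 and -0.82 in controls and 1.91, 2.06 and 2.19 after Folfiri, a difference of 2.79. Slc29a1 over Slc29a2 was 3.76, 4.0 and 4.56 in controls and 1.36, 1.40 and 1.46 after Folfiri, a difference of -2.70. Ctps over Ctps2 was 0.73, 0.53 and 0.50 in controls and 2.83, 2.83 and 2.85 after Folfiri, a difference of 2.25 with hardly any spread after treatment.

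Fpgs over Ggh was -0.53, -1.43 and -1.64 in controls and 0.54, 0.63 and 0.63 after Folfiri, a difference of 1.8. Control replicate 1 was the control nearest to the Folfiri samples. Aldh1l1 over Aldh1l2 differed by 0.97, but the Folfiri values ranged from 0.28 to 1.53, where the counts were 56, 34 and 49 for Aldh1l1 and 19, 28 and 25 for Aldh1l2. The remaining separate pairs differed by 0.55 for Shmt1 over Shmt2, 0.36 for Prps1 over Prps2, 0.40 for Nme1 over Nme2, -0.24 for Hprt over Aprt, -0.81 for Impdh1 over Impdh2, -0.83 for Rrm1 over Rrm2 and -0.85 for Dck over Samhd1. Mthfd2 over Mthfd2l overlapped between groups (difference -0.26, exact permutation p = 0.3, n = 3 each). Without control replicate 1 this difference was -0.05.

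**Figure D4:**
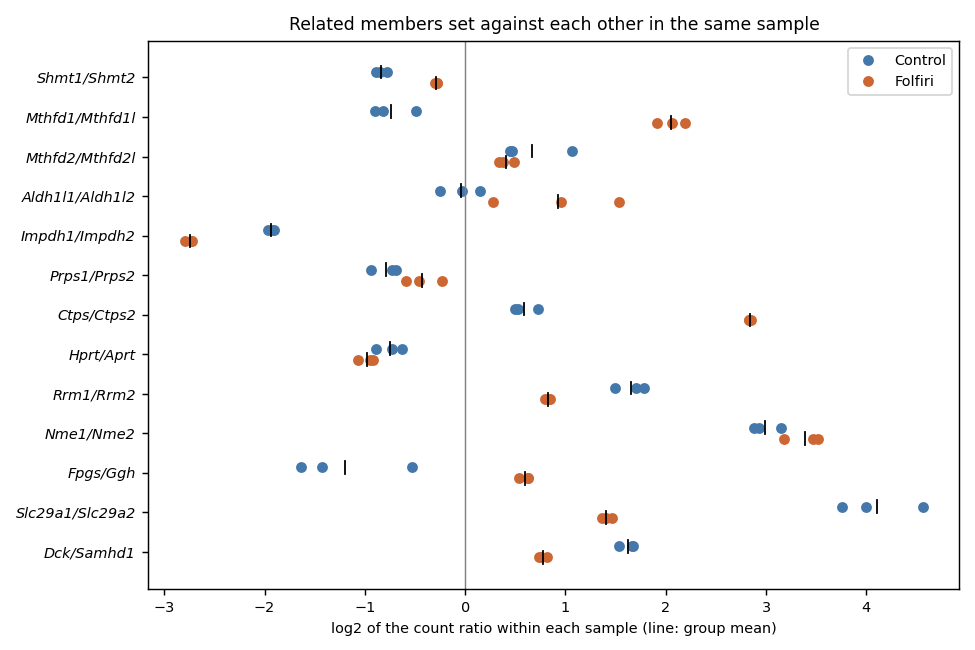
Log2 ratio of the counts of 2 related members within each sample (x axis) for 13 pairs, with 1 point per control or Folfiri sample and a line at each group mean. The groups are separate in 12 pairs, most widely for Mthfd1 over Mthfd1l, and overlap for Mthfd2 over Mthfd2l.

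Genomic span was looked at as a property that the choice of genes did not use. The 3 members with the longest span, Mthfd1l (193964 bases), Ctps2 (131271 bases) and Aldh1l1 (113777 bases), were all lower after Folfiri. The next 3 were Mthfd2l and Mthfd1, which did not pass, and Mtr, which rose, so that of 6 members over 60000 bases, a limit chosen with the values known, 3 fell and 1 rose. Of the 35 shorter members, 7 fell and 23 rose, and Aldh1l2, with the lowest fold change of all, is one of these 7. Spearman's rho between log2 fold change and span was -0.264 over the 41 members and -0.00585 over 14687 genes tested, given as descriptions across genes, which are not independent replicates. A rank correlation shows only a steady trend, and a rise and fall along span can leave it small. The offset, fitted over all genes tested, raised Ctps2 from -0.87 to -0.51 and lowered Paics from 0.39 to 0.21. With the offset for span, Mthfd1l was at -1.98, Aldh1l1 at -3.05 and Aldh1l2 at -4.33, all still past the threshold, and the part of span in these values was not tested further.

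**Figure D5:**
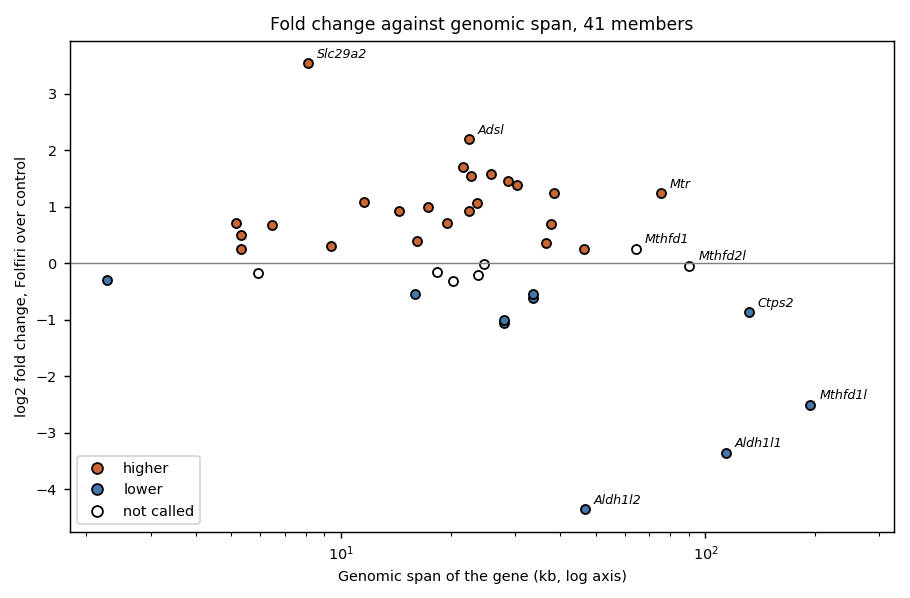
Log2 fold change after Folfiri over control (y axis) against genomic span in kb (log x axis) for the 41 members, coloured by call. The 3 longest genes, Mthfd1l, Aldh1l1 and Ctps2, lie below 0, while Aldh1l2 is the lowest point, at 46691 bases, above the members' median span of 23615.

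Other genes of the same pathways were taken from lists of known pathway genes, and their counts stand beside the 79.1% of all genes that were called. Of 23 nucleotide genes outside the members, 10 rose and 7 fell, with a median log2 fold change of 0.03. With total counts only 13 of these rose and 4 fell, and 5 fell without Folfiri replicate 1 or 2. Umps rose from 14.5 ± 5.28 to 82.0 ± 5.08 CPM (log2 fold change 2.48 ± 0.19, edgeR adjusted p = 7.37e-07), and Ampd2, which deaminates AMP to IMP, rose from 21.8 ± 0.697 to 107.2 ± 2.66 CPM (log2 fold change 2.30 ± 0.07). Cda, which deaminates cytidine, and Upp1, a uridine phosphorylase, fell by 1.89 and 1.79 on the log2 scale. Of 8 further folate genes tested, 5 rose and 3 fell, and the count of lower genes was 1 without Folfiri replicate 1, without Folfiri replicate 2, with total counts only and with upper quartile factors. Gcsh, a protein of the glycine cleavage system, rose by 1.83 and Slc25a32, the mitochondrial folate carrier, by 0.79, while Mthfs, which returns formyl-folate to the cycle, fell by 1.97. Of 5 serine and methionine genes, 2 rose and 3 fell. Mat2a, which makes S-adenosylmethionine, rose by 1.54 and Phgdh, of serine synthesis, by 0.65, while Ahcy, which clears S-adenosylhomocysteine, fell by 1.26 and Psat1, also of serine synthesis, fell by 0.88.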

How the data were processed

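RNA of 3 control and 3 Folfiri samples of MTO54 organoids was sequenced from poly(A)-selected libraries. The authors aligned reads with STAR 2.5.2 to GRCm38, counted them per gene with Rsubread using a GENCODE annotation and deposited the counts without normalization. The kit is not named as strand-specific, and the settings for strand and for reads with several positions are not given in the sources used here, so the values of members with overlapping genes or near-identical copies, most of which are named beside them, are uncertain. Groups came from the labels.

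The deposited counts were analysed with edgeR 4.0.16 in R 4.3.3 (expression filter at default settings, TMM normalization, quasi-likelihood test, Benjamini-Hochberg adjustment over 14692 genes, threshold 0.05). The SE of a log2 fold change was derived as its absolute value divided by the square root of the F statistic of that test. Symbols, spans and exonic lengths came from GENCODE vM21, which held 24168 of the 24190 gene IDs. Exonic length counts every annotated exonic base of a gene and can exceed its longest transcript (3077 against 1858 bases for Impdh2). Levels and ranks per kb therefore depend on the annotation. Related members were compared as log2 ratios of counts with 0.5 added, by a two-sided exact permutation test. The members and lists were chosen with earlier results of these data known.

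Values in every sample are given for up to 4 members per arm with the largest changes (called, groups not overlapping, mean of at least 5 CPM) and for the members of the pairs. From each other list up to 2 genes per direction are named, and Mki67. A result that this rule covers is not reported here. Alternatives were DESeq2 1.42.0, other scaling factors, other filters, the replicate number as a block, an offset from a loess trend on genomic span, and each sample left out in turn. The procedure was tested on simulated data for this comparison, where 174 of 200 changed genes and 13 others were called among 14463. The simulation changed only 200 genes, whereas 79.1% of genes were called here. Scaling under so broad a change was not tested.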

Additional observations from a re-analysis of the deposited data

How the results depend on the processing

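Of the 41 members, 32 kept direction and call under all 14 alternative fits. Members called ranged from 34 to 37, higher from 24 to 27 and lower from 9 to 13, and genes called overall from 10630 to 12742. Under total counts only, the members' median was 0.63, nucleotide genes outside the members called lower numbered 4, and Mthfd2l and Ggh turned to 0.24 and 0.26, both past the threshold. Folate genes outside the members called lower numbered 1 with total counts only and 1 with upper quartile factors, and 1 to 2 with a sample left out (1 without Folfiri replicate 1 or 2), against 3. Total counts raise all fold changes by construction, and the cause of the other changes was not tested.

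The 9 members whose call changed were Aprt, Cad, Dtymk, Rrm2, Mthfd1, Mthfd2, Mthfd2l, Ggh and Dck. Of the 14 fits, Cad passed in 4, from -0.23 with no filter to -0.32 with the span offset, Dck in 2, at -0.16 without control replicate 1 and -0.33 with the span offset, and Mthfd2 in 7. The replicate numbers did not pair the samples (correlations of same-numbered deviations 0.02675, -0.1171 and 0.0393). With the replicate block, 36 members and 11499 genes were called, and Mthfd1 (0.29) and Mthfd2 (-0.30) passed. Without control replicate 1, Cad, Rrm2 and Mthfd2 were at -0.06, -0.10 and -0.12, none past the threshold. With total counts only, Cad, Rrm2 and Dck turned to 0.06, 0.10 and 0.12, none past the threshold. The limit that depth sets on small differences was not tested.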
